A study of Mus musculus with 6 samples.

Results

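The enzymes that harden and crosslink collagen were followed in the knee of mice lacking Frzb, a secreted antagonist of WNT signalling. The set held the lysyl oxidases Lox, Loxl1, Loxl2, Loxl3 and Loxl4, the lysyl hydroxylases Plod1, Plod2 and Plod3, and the prolyl 4-hydroxylase alpha subunits P4ha1 and P4ha2. Members were all probe sets assigned to one of these symbols and to no other gene in the array's annotation. This gave 16 of 30618 probe sets, for 9 of the 10 genes and of 13817 genes in all. Loxl2 had no such probe set, because its 2 probe sets were also assigned to Gm21451, and it is not described further. The dissected piece held articular cartilage, subchondral bone, marrow and the top of the growth plate, all from the tibial plateau. All mice were male, aged 6 weeks and of the C57Bl/6J strain, and each array carried RNA from a single joint. The 3 wild-type arrays came from the animals titled 6-1, 8-1 and 9-1, and the 2 arrays compared with them as Frzb-/- from the animals titled 14 and 17, which lack the gene in every cell. A further array, titled 6, also carries the knockout label and is given apart from them. A mouse labelled as a knockout was found heterozygous on re-genotyping and left out of the study's comparison, and its title was not given. Title 6 is likely that mouse, since the printed fold changes were recovered without it and not with it. However, its genotype label is that of a knockout, and its Frzb level was about as low as in arrays 14 and 17. Its genotype thus stays uncertain here.

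Collagen chains are hydroxylated on proline and lysine inside the endoplasmic reticulum. Prolyl 4-hydroxylase gives the triple helix its stability at body temperature, and lysyl hydroxylases prepare the sites at which sugars and crosslinks are attached. Outside the cell, lysyl oxidases oxidise lysine and hydroxylysine residues of collagen and elastin, and the aldehydes so formed join into the covalent crosslinks that give cartilage, bone and tendon their tensile strength.

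Expression values are RMA values on the log2 scale, so a difference of 1 is a 2-fold difference, and values of different probe sets are not comparable with each other. A probe set was called when limma's moderated test gave an adjusted p under 0.01 with an absolute log2 difference above 1, and an adjusted p under 0.05 with no bound on the size was used as a wider threshold. Frzb was measured first as the targeted gene. Its brighter probe set (1416658_at) read 10.02, 10.80 and 10.16 in the wild-type arrays, 7.02 and 6.42 in Frzb-/- arrays 14 and 17, and 6.93 in title 6. Frzb was thus low in all 3 arrays labelled as knockouts, title 6 included, with a log2 difference of -3.61 for 14 and 17 (adjusted p = 0.000994). Over all probe sets, title 6 correlated with the wild-type arrays at Pearson's r of 0.983 to 0.991 and with the Frzb-/- arrays at 0.940 to 0.957.

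Lox and Loxl1 were higher in the Frzb-/- joints at each of their probe sets. Each was called at 1 of them, where the difference was about the size of the fold bound. Both calls were lost in fits that left out certain arrays, as given below. No member was lower at either threshold. Of the 16 member probe sets, 2 were called higher and 0 lower, beside 2.34% of all probe sets called higher and 5.09% called lower. At the wider threshold 9 were higher and 0 lower, where 11.7% of all probe sets were higher and 14.8% lower. Both Frzb-/- arrays lay above every wild-type array at 11 of the 16, against 27.5% of all probe sets, and below every wild-type array at 0, against 28.1%. The median log2 difference was 0.56 over the 16 probe sets and 0.017 over all probe sets. With 1 probe set per gene, the one of highest mean, 1 of 9 genes was called (Loxl1), beside 3.03% of all genes, and the medians were 0.57 and 0.043. In these bulk samples, more cells of a type and more RNA per cell cannot be told apart, and neither can fewer cells and less RNA per cell.

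**Figure D1:**
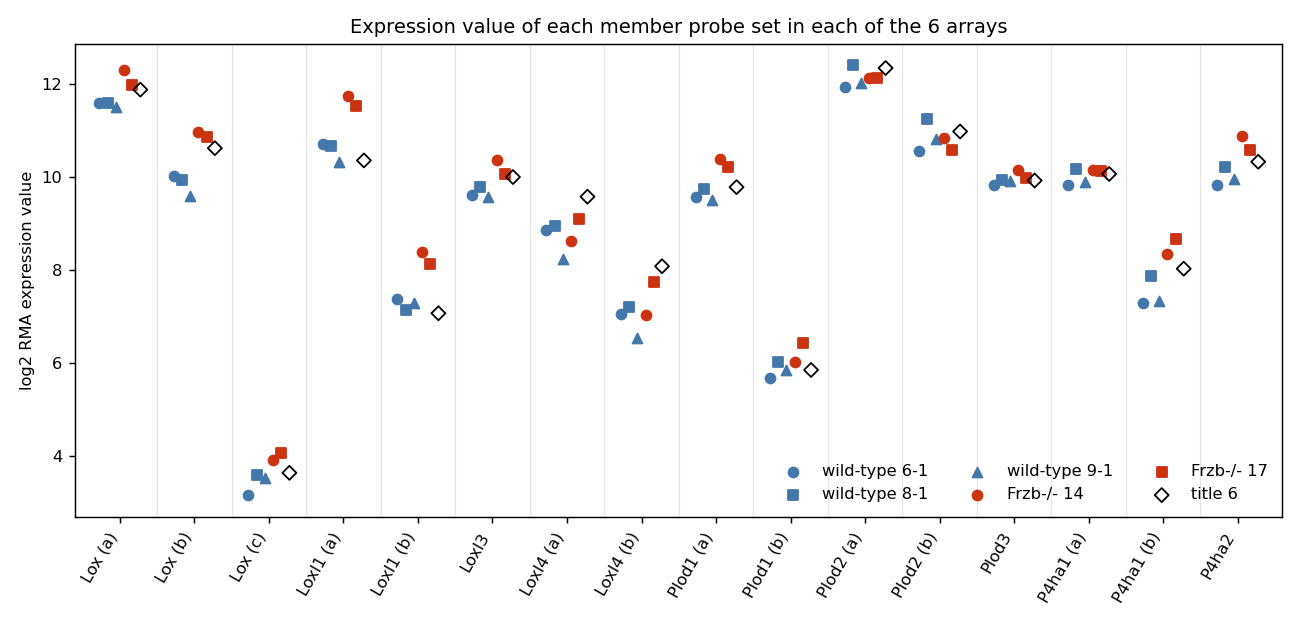
Log2 RMA expression value (vertical axis) of the 16 member probe sets in the 6 arrays, with the letters a, b and c ranking the probe sets of a gene from the brightest to the dimmest. Blue symbols are the 3 wild-type arrays, red symbols Frzb-/- arrays 14 and 17, and open diamonds title 6. At Lox (b) the wild-type arrays lie between 9.59 and 10.02 and the Frzb-/- arrays at 10.87 and 10.98, whereas at Plod2 (a) the Frzb-/- arrays lie inside the wild-type range.

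Lox, the founding lysyl oxidase that acts on fibrillar collagen and elastin, was measured by 3 probe sets. At 1448228_at the wild-type arrays read 10.02, 9.93 and 9.59 and the Frzb-/- arrays 10.98 and 10.87. The groups did not overlap, and the gap between them was wider than the spread of either group. The log2 difference was 1.07 (95% interval 0.70 to 1.45, SE 0.16, adjusted p = 0.00421), which is 2.11-fold. The brightest Lox probe set, 1416121_at, read 11.60, 11.59 and 11.51 against 12.31 and 11.99. The groups were again apart, but the difference of 0.58 (SE 0.14, adjusted p = 0.0218) met the wider threshold alone. The dimmest, 1437903_at, lay near the floor of the arrays, at 3.15, 3.60 and 3.52 against 3.91 and 4.06, where the value below which 1% of probe sets lay was 3.08. Its difference was 0.56 (adjusted p = 0.0447), so the 3 Lox probe sets gave 1 direction and differed in size, from 0.56 to 1.07.

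Loxl1, the lysyl oxidase that is needed to maintain elastic fibres, gave the most even pair of readings. At 1451978_at the wild-type arrays read 10.72, 10.68 and 10.33 and the Frzb-/- arrays 11.74 and 11.53. At 1436063_at they read 7.38, 7.14 and 7.29 against 8.40 and 8.13. At both probe sets every Frzb-/- array lay above every wild-type array. The differences were 1.06 (95% interval 0.68 to 1.44, adjusted p = 0.00473, 2.09-fold) and 0.99 (95% interval 0.66 to 1.33, adjusted p = 0.00373, 1.99-fold), so the second had the lower adjusted p and missed the call only at the bound on size.

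Loxl3, a lysyl oxidase needed for palate and spine development, was higher by 0.57 (SE 0.14, adjusted p = 0.0293) and met the wider threshold alone. Its single probe set, 1418269_at, read 9.62, 9.80 and 9.57 in wild-type and 10.38 and 10.08 in Frzb-/- arrays, without overlap. Loxl4, which carries scavenger receptor domains like Loxl2 and Loxl3, did not pass. At 1421153_at its wild-type values of 8.85, 8.96 and 8.24 enclosed the Frzb-/- value of 8.63 in array 14, with 9.10 in array 17, and at 1450134_at values of 7.05, 7.22 and 6.55 enclosed 7.03, with 7.75 in array 17. The groups overlapped at both probe sets, and the differences of 0.18 (95% interval -0.41 to 0.77, adjusted p = 0.630) and 0.45 (95% interval -0.19 to 1.09, adjusted p = 0.265) were within the spread of the arrays.

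Among the lysyl hydroxylases, Plod1, which acts on lysines of the triple helix, met the wider threshold at 1 of its probe sets. Its brighter probe set 1416289_at read 9.57, 9.75 and 9.50 in wild-type and 10.40 and 10.22 in Frzb-/- arrays, without overlap, with a log2 difference of 0.70 (95% interval 0.39 to 1.02, SE 0.13, adjusted p = 0.0101). The dimmer 1445893_at read 5.68, 6.02 and 5.85 against 6.03 and 6.43, and its difference of 0.38 (adjusted p = 0.150) did not pass. Plod2, the hydroxylase of the collagen telopeptides whose product leads to the mature crosslinks of bone and cartilage, did not pass at either probe set. At 1416687_at the wild-type arrays read 11.95, 12.41 and 12.02 and both Frzb-/- arrays 12.13, inside the wild-type range. The difference was 0.00 with a 95% interval of -0.38 to 0.39 (adjusted p = 0.987). At 1416686_at wild-type values of 10.56, 11.25 and 10.82 enclosed the Frzb-/- values of 10.84 and 10.59, with a difference of -0.16 (95% interval -0.66 to 0.34, adjusted p = 0.610). The intervals of both probe sets exclude a 2-fold difference in either direction. Differences between the 3 Plod genes were not tested.

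Plod3, the family member that also transfers sugars to hydroxylysine, read 9.83, 9.93 and 9.91 in wild-type and 10.15 and 9.99 in Frzb-/- arrays at 1415901_at. The Frzb-/- arrays were both higher, array 17 by a narrow margin, and the difference of 0.18 (95% interval -0.10 to 0.47, adjusted p = 0.304) did not pass. Because Frzb acts on WNT signalling, the promoters of the members were searched for the core of the TCF/LEF site, the DNA element of the WNT effectors, on both strands. The form CTTTGAT was searched along with its relatives. These were CTTTGAA, which ends in another base, and also the form CTTTGTT. Promoters of 250 bases before to 50 after the start, from RefSeq on build GRCm38.p6, were at hand for 5 members (Plod1, Plod3, P4ha1, P4ha2 and Loxl4). Plod3 was the one with a match, a motif that 13.9% of 32851 promoters hold. It is shown on its plus strand at chr5:136986769-136987068, with the match in capitals.
Plod3: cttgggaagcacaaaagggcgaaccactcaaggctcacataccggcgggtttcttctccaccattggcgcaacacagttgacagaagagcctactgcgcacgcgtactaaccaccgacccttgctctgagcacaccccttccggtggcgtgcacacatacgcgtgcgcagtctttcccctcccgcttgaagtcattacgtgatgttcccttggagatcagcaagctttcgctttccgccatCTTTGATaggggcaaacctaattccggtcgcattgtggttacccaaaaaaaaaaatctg
The promoters of Lox, Loxl1, Loxl2, Loxl3 and Plod2 were not at hand, so the called members, Lox and Loxl1, were not searched. A match of these letters is a description of the window only.

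P4ha1 and P4ha2 are the catalytic subunits of the major prolyl 4-hydroxylases, and both are known to be induced by hypoxia. P4ha2 read 9.83, 10.22 and 9.95 in wild-type and 10.88 and 10.60 in Frzb-/- arrays at its single probe set, 1417149_at. The groups were apart, and the difference of 0.74 (95% interval 0.35 to 1.12, SE 0.16, adjusted p = 0.0177) met the wider threshold alone. The probe sets of P4ha1 disagreed. At the brighter 1452094_at wild-type values of 9.84, 10.18 and 9.89 enclosed the Frzb-/- values of 10.16 and 10.12, with a difference of 0.17 (95% interval -0.17 to 0.51, adjusted p = 0.419). At the dimmer 1426519_at the wild-type arrays read 7.29, 7.88 and 7.33 and the Frzb-/- arrays 8.35 and 8.66, with a difference of 1.01 (95% interval 0.508 to 1.504, adjusted p = 0.0146). The dimmer probe set thus exceeded the size bound and missed the bound on p, and whether the probe sets read different transcripts was not tested. The promoters of the pair are shown because each holds the hypoxia response core ACGTG, searched on both strands and found in 19.6% of 32851 promoters. The matches are in capitals, P4ha1 at chr10:59323046-59323345 with 1 match on the reverse strand and P4ha2 at chr11:54100674-54100973 with 2 matches, both on the plus strand of build GRCm38.p6.
P4ha1: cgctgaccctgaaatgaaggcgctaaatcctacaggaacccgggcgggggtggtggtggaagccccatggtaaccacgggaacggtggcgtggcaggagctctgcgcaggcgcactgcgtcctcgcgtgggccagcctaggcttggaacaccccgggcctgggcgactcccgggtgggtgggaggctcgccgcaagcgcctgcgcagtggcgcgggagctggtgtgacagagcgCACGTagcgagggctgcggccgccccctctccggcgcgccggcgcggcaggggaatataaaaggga
P4ha2: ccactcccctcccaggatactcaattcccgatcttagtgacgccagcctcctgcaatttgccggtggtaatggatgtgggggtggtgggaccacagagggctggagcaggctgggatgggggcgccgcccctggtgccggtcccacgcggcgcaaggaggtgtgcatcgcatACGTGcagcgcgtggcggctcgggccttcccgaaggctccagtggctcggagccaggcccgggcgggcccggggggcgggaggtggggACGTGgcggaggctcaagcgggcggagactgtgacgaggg
The promoter of Plod3 also holds 1 such core, and those of Plod1 and Loxl4 hold none in this window.

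**Figure D2:**
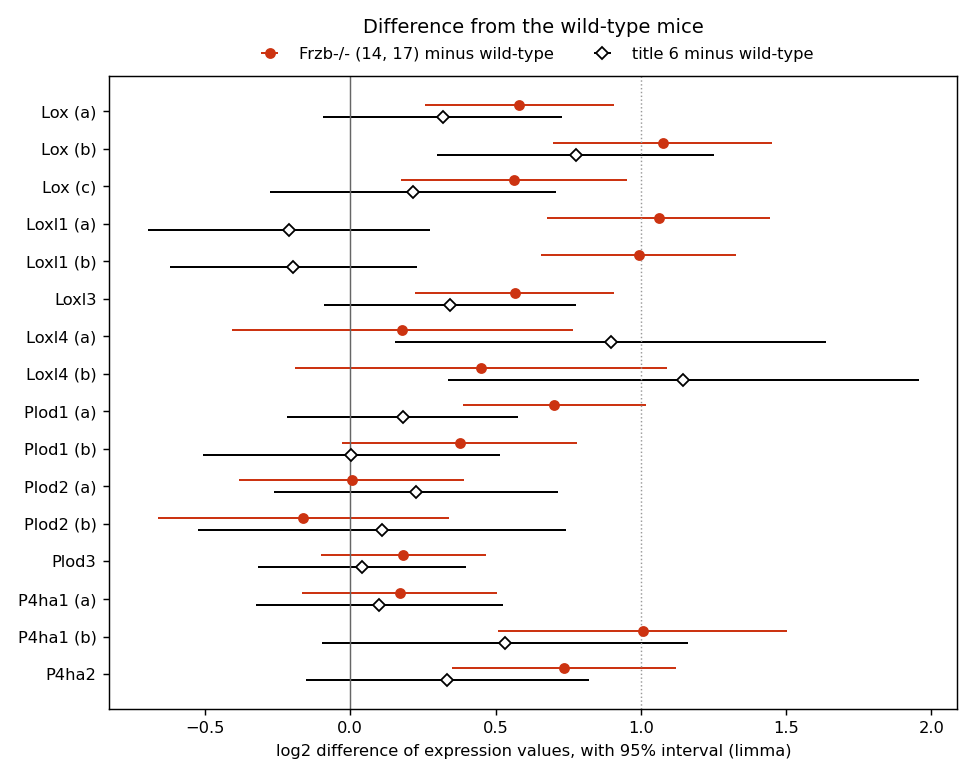
Log2 difference from the wild-type mean (horizontal axis) for each member probe set, with the 95% interval from limma. Red points are Frzb-/- arrays 14 and 17 against the wild-type arrays and open diamonds are title 6 against them, and the dotted line marks a difference of 1. The Frzb-/- points of Lox (b), Loxl1 (a) and P4ha1 (b) pass the dotted line, those of Plod2 sit at 0.00 and -0.16, and at Loxl1 the diamonds lie on the opposite side of 0 from the red points.

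Both calls depended on single arrays among the 5. Lox at 1448228_at kept its call without wild-type 6-1 and lost it without wild-type 8-1 (adjusted p = 0.0188), without wild-type 9-1 (log2 difference 0.95) and without Frzb-/- 14 or 17 (adjusted p = 0.0254 and 0.0256). Loxl1 at 1451978_at lost its call without each array in turn, with a log2 difference of 0.94 to 1.17 and an adjusted p of 0.00836 to 0.0284, while Loxl1 at 1436063_at gained one without wild-type 6-1 or 9-1. The number of member probe sets called was therefore 2 without wild-type 6-1, 1 without wild-type 9-1, and 0 without wild-type 8-1, Frzb-/- 14 or Frzb-/- 17. Over the whole array the number called higher also moved, from 717 to 97 without Frzb-/- 17, 298 without wild-type 8-1 and 355 without Frzb-/- 14.

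The wider threshold was steadier for part of the set. Lox at 1448228_at, both Loxl1 probe sets and Plod1 at 1416289_at met it without each of the 5 arrays. P4ha2 and P4ha1 at 1426519_at met it in 4 of 5 fits, P4ha2 failing without Frzb-/- 14 (highest adjusted p 0.0845) and P4ha1 without Frzb-/- 17 (0.0931). Lox at 1416121_at met it in 2 fits, Loxl3 in 1 and Lox at 1437903_at in 0. The number of member probe sets that met it was 9 with all arrays and 5 to 7 with an array left out, and 0 were lower at this threshold in these fits.

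**Figure D3:**
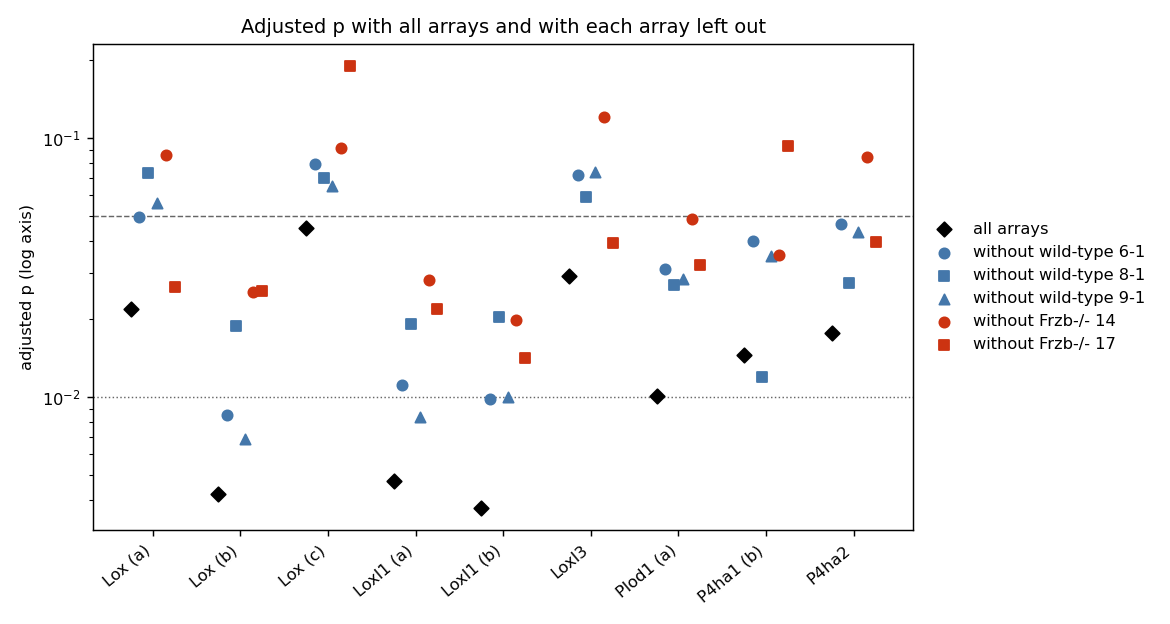
Adjusted p (log axis) of the 9 member probe sets with an adjusted p under 0.05, with all arrays (black diamonds) and with each of the 5 arrays left out (blue for wild-type, red for Frzb-/-). The dashed line is 0.05 and the dotted line 0.01. Lox (b), Loxl1 (a), Loxl1 (b) and Plod1 (a) stay under the dashed line in every fit, and Lox (c) passes it in each fit that leaves out an array.

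Title 6, with Frzb as low as in arrays 14 and 17, read below both at each called member probe set. Against the wild-type arrays 0 of its 16 member probe sets were called by limma, beside 0.0% of all probe sets called higher, and 3 reached an unadjusted p under 0.05, where 4.32% of all probe sets did so on the higher side and 2.85% on the lower. Title 6 lay above every wild-type array at 9 of the 16, against 34.4% of all probe sets, and below at 1, against 22.7%. As title 6 is a single array, its spread was taken from the other groups.

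Lox and Loxl1 parted in this array. Lox at 1448228_at read 10.63, above every wild-type array and below both Frzb-/- arrays, 0.78 above the wild-type mean (adjusted p = 0.678). Loxl1 read 10.36 at 1451978_at, inside the wild-type range, and 7.07 at 1436063_at, below it. Arrays 14 and 17 exceeded title 6 by 1.27 and 1.19 at the Loxl1 probe sets (adjusted p = 0.0127 and 0.0105) and by 0.30 at Lox 1448228_at (adjusted p = 0.357). In that comparison 0 member probe sets were called, beside 0.787% of all probe sets called higher and 3.2% called lower. The 2 of Loxl1 were higher at the wider threshold, beside 6.04% of all probe sets higher and 12.0% lower. At an unadjusted p under 0.05 there were 3, a share under the 35.1% of all probe sets.

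Loxl4 was the member that stood highest in title 6 relative to the wild-type arrays. Its probe sets read 9.58 and 8.09 there, above every other array, 0.90 and 1.15 above the wild-type means. The unadjusted p values were 0.0246 and 0.0124, and the adjusted p was 0.678 for both. In title 6 the probe sets of Loxl3, Plod1, Plod2, Plod3, P4ha1 and P4ha2 lay 0.0030 to 0.53 above the wild-type mean. With title 6 counted as a Frzb-/- array, 0 member probe sets were called and 7 had an unadjusted p under 0.05, while 0 of the 30618 probe sets on the array were called. The log2 differences were then 0.97 for Lox at 1448228_at (adjusted p = 0.428) and 0.64 for Loxl1 at 1451978_at (adjusted p = 0.470).

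The other genes of collagen synthesis were read at the probe set of highest mean, as lists. Of 13 measured genes for collagen folding and modification, 1 was called higher and 0 lower, 6 were higher at the wider threshold, and the median difference was 0.43. The called gene was P4ha3, a further alpha subunit of prolyl 4-hydroxylase. It read 5.08, 5.03 and 5.02 in wild-type, 6.34 and 6.38 in Frzb-/- arrays and 5.18 in title 6, a rise of 1.32 (adjusted p = 0.00105). P4ha3 in title 6 lay just above the wild-type arrays and below both Frzb-/- arrays. Of the others at the wider threshold, chosen after their values were seen, the prolyl 3-hydroxylases P3h1, P3h2 and P3h3 differed by 0.49, 0.55 and 0.91. Crtap, the partner of P3h1, differed by 0.61 and Fkbp14 by 0.52. Serpinh1, the collagen chaperone, was split between its probe sets, with 0.21 at the brighter 1450843_a_at (adjusted p = 0.288) and a called 1.45 at the dimmer 1456733_x_at (adjusted p = 0.00153).

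Of 6 genes for procollagen export and processing, 1 was called higher and 0 lower, 3 were higher at the wider threshold, and the median was 0.50. The called gene was Pcolce, which enhances removal of the procollagen C-propeptide and rose by 1.11 (adjusted p = 0.00249). Its call was lost without wild-type 8-1 (adjusted p = 0.0131), Frzb-/- 14 (0.0124) or Frzb-/- 17 (0.0111). Of 10 crosslinked substrates, 3 were called higher and 0 lower, 5 were higher at the wider threshold, and the median was 0.48. Eln, the elastin gene, rose by 1.86 (adjusted p = 0.000938), from 8.93, 8.91 and 8.88 to 10.88 and 10.67, and read 8.91 in title 6. Col5a1 and Col5a3, chains of the collagen that nucleates thin fibrils, rose by 1.35 and 1.01 (adjusted p = 0.00110 and 0.00548). Eln, Col5a1 and P4ha3 kept their calls without each of the 5 arrays, whereas Col5a3 lost its call without any one of them (log2 difference 0.81 to 1.21, adjusted p 0.0130 to 0.0247), which left 2 substrates called in each such fit.

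The main fibrillar collagens gave mixed readings. Col3a1 was higher by 0.70 at its brightest probe set (adjusted p = 0.00840), under the size bound, and by 1.71 at 1427884_at (adjusted p = 0.00157). Col1a1, the main chain of bone collagen, differed by 0.27 (adjusted p = 0.128) and Col2a1, that of cartilage, by 0.03 (adjusted p = 0.874). At the brightest probe set of Col1a1 and the single one of Col2a1, values were above 14 in all 6 arrays. A dimmer Col1a1 probe set, 1455494_at, read 9.92 to 10.44 and differed by -0.18 (adjusted p = 0.436).

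Among 4 proteins that bind and place lysyl oxidases, Postn was called higher, by 1.22 (adjusted p = 0.00745), 2 were higher at the wider threshold and the median was 0.62. The Postn call was kept without wild-type 6-1 and lost without wild-type 8-1, wild-type 9-1, Frzb-/- 14 or Frzb-/- 17 (adjusted p = 0.0336, 0.0155, 0.0358 and 0.0499). Of 3 enzymes that crosslink matrix by other chemistry, Pxdn, the peroxidase of collagen IV, was called higher, by 1.26 (adjusted p = 0.00460), and the median was 0.47. Its call was lost without wild-type 8-1, Frzb-/- 14 or Frzb-/- 17 (adjusted p = 0.0206, 0.0294 and 0.0265). Of 10 hypoxia-induced genes, 0 were called by limma and 2 had an unadjusted p under 0.05, beside 41.6% of all genes, with a median of 0.18. Ldha, the brightest of them, differed by 0.19 (adjusted p = 0.410), and Adm, the gene that met the wider threshold, by 0.51 (adjusted p = 0.0254). All these medians stand beside 0.043 over all genes, and the shares beside 3.03% of all genes called higher, 6.02% called lower with 13.8% higher and 15.3% lower at the wider threshold.

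**Figure D4:**
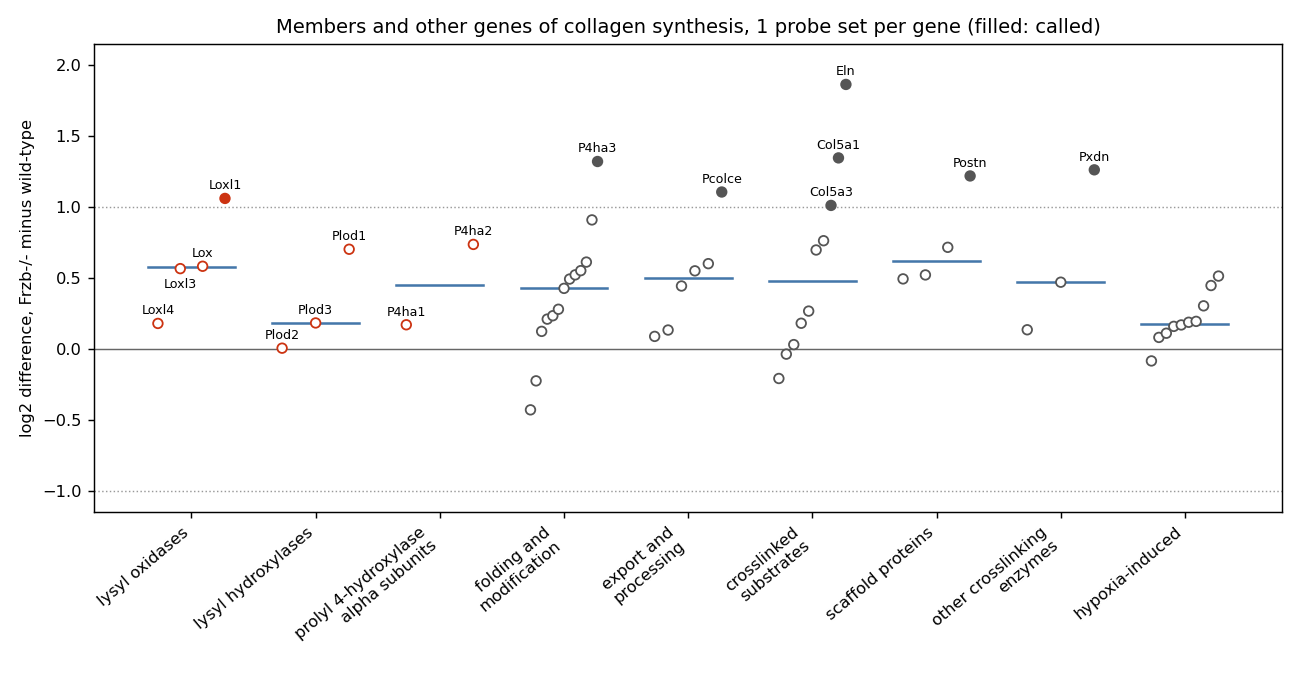
Log2 difference of Frzb-/- arrays 14 and 17 from the wild-type arrays (vertical axis) for the members (red) and for other genes of collagen synthesis (grey), 1 probe set per gene. Filled points were called, blue lines are list medians and dotted lines mark 1 and -1. Eln is the highest at 1.86, no gene in these lists was called lower, and Loxl1 is the filled member.

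Markers of some other cell types were also higher in the Frzb-/- arrays. In the Frzb-/- arrays 4 of 6 fibroblast markers were called higher, where 3.03% of all genes were. The 6 differed by 0.75 to 1.94. Their summed level, on the log2 scale, was 13.51 to 13.70 in wild-type and 14.66 to 14.78 in Frzb-/- arrays. Each such sum adds the linear values of different probe sets, so it mostly follows the brightest markers of its list. Of 4 smooth muscle and pericyte markers 3 were called higher, with summed levels of 11.79 to 12.03 against 13.16 to 13.40, and of 4 tendon markers 1 was, with 11.45 to 12.28 against 12.997 to 13.19. Of 4 endothelium markers 0 were called and 1 was higher at the wider threshold, beside 13.8% of all genes. Their summed levels were 10.309 to 10.675 in wild-type and 10.972 to 11.104 in Frzb-/- arrays. In title 6 the summed levels were 13.95 for fibroblasts, above the wild-type arrays, and 11.68 for smooth muscle, below them. Those of 11.62 for tendon and 10.444 for endothelium lay inside the wild-type range. Fibroblasts and smooth muscle cells also express Lox and Loxl1.

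The cartilage and bone markers of the labelled tissue were present and 0 were called. Over all genes, 3.03% were called higher and 6.02% lower. At the wider threshold 1 of the 4 measured osteoblast and osteocyte markers was higher, Alpl by 0.62 (adjusted p = 0.0234). Of the chondrocyte markers 0 were higher, where 13.8% of all genes were. The 6 chondrocyte markers summed to 15.87 to 16.23 in wild-type and 16.02 to 16.14 in Frzb-/- arrays, and the 4 measured osteoblast and osteocyte markers to 15.31 to 15.43 and 15.48 to 15.61. Blood lineages moved the other way. The 3 erythroid markers measured were all called lower, from 12.71 to 13.21 down to 10.29 to 10.32, as were all 5 neutrophil markers, from 15.77 to 16.16 down to 13.90 to 14.45, whereas title 6 read 13.13 and 15.95. Skeletal muscle markers, at 16.07 to 16.55 and 16.36 to 16.62, were bright in this joint piece and 0 of 5 were called. In title 6 they summed to 15.55, with 5 of 5 below every wild-type array, against 3814 of 13817 genes. B cell markers summed to 10.16 to 10.48 in wild-type arrays, 7.64 to 8.12 in Frzb-/- arrays and 9.73 in title 6. The part of the fibroblast, smooth muscle, tendon, endothelium and marrow levels in the member values was not tested.

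**Figure D5:**
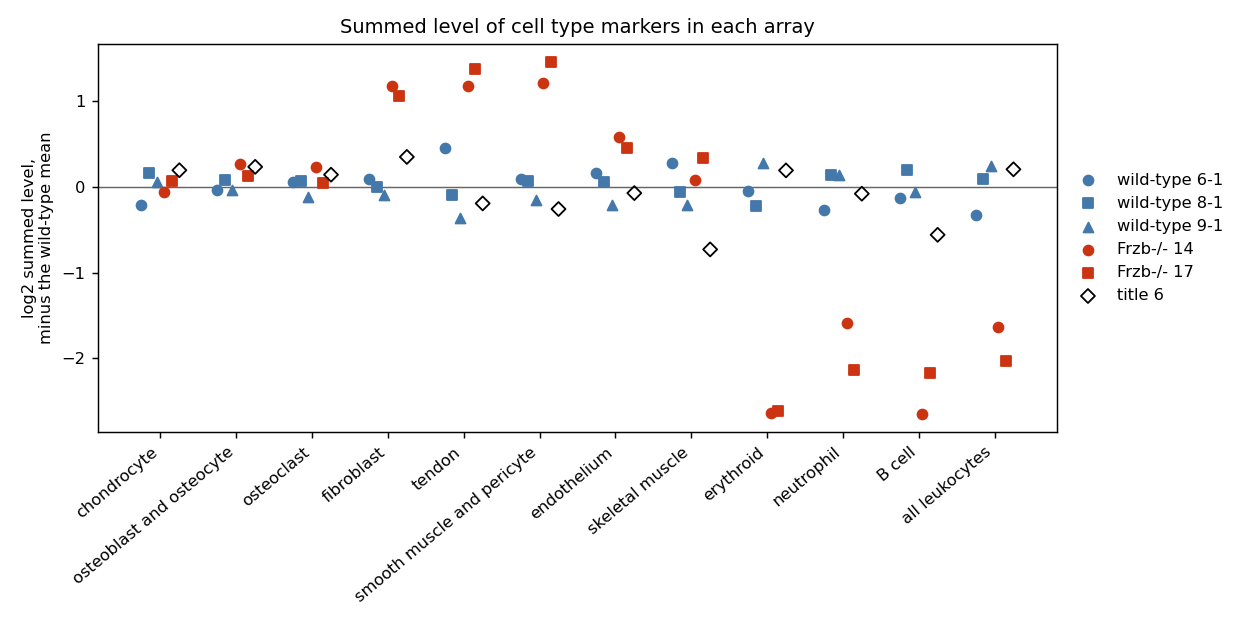
Log2 of the summed level of each cell type's markers, minus the wild-type mean (vertical axis), in the 6 arrays. Blue symbols are wild-type, red symbols Frzb-/- and open diamonds title 6. The red points lie above the wild-type arrays for fibroblast, tendon, smooth muscle and pericyte, endothelium and, narrowly, osteoblast and osteocyte markers, and below them for erythroid, neutrophil, B cell and all leukocytes, while title 6 lies within or near the wild-type arrays for erythroid, neutrophil and all leukocyte markers.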

How the data were processed

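RNA of 1 joint per array was hybridised to Affymetrix whole-genome mouse arrays (3 wild-type, 3 labelled knockout). The authors took out probe sets for controls or with absent calls and deposited RMA values on the log2 scale, made with affy version 1.20.0 per the submitters' processing notes. Arrays have no read depth, and their small number is among the limits on precision. Array medians lay between 7.32 and 7.45.

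The comparison used arrays 14 and 17, since of 49 fold changes printed in the study, Frzb aside, 44 had a probe set here, and all 44 matched a mean difference of these values within 0.01 for that choice of arrays and 0 for any other. Probe sets were named from the array's annotation (25090 with 1 gene, 677 with several, 4851 unnamed). All 30618 were fitted with limma 3.58.1 in R 4.3.3 (1 coefficient per group, lmFit, eBayes, two-sided, Benjamini-Hochberg). Calls took the study's thresholds, an adjusted p under 0.01 and an absolute log2 difference above 1. The spread is between single joints of different mice. The fit was tested on simulated data. Tables and figures used Python 3.11.15, numpy 2.4.6, pandas 2.3.3 and matplotlib 3.10.9.

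The members and the gene lists were chosen with earlier results of these data known. Genes named are all members, Frzb, the genes called in each list (at most 4, or the brightest where none was called), and Col1a1, Col2a1 and Col3a1. P3h1, P3h2, P3h3, Crtap, Fkbp14, Serpinh1, Adm and Alpl were added after their values were seen. Alternatives were title 6 counted as Frzb-/-, each array left out, probe sets above the median level, cyclic loess, median centring, trended, robust or no moderation, array weights, averaging the probe sets of a gene and the wider threshold. Using the wider threshold together with each array left out, and running the alternatives on Frzb-/- against title 6, were chosen after seeing the data. Motifs were searched in RefSeq promoters of build GRCm38.p6.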

Additional observations from a re-analysis of the deposited data

How the results depend on the processing

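The number of member probe sets called higher, 2 in the fit of all arrays, was 0 with title 6 counted as Frzb-/-, 0 without moderation (8 at an unadjusted p under 0.05), 4 with median centring, 9 at the wider threshold and 0 to 2 with each array left out. With title 6 counted as Frzb-/- or without moderation 0 of all 30618 probe sets were called, and with median centring 2.82% were called higher. Cyclic loess, trended or robust moderation and the probe sets above the median level gave 2, and array weights 3. No alternative called a member lower. For Frzb-/- against title 6, where 0 were called, the count was 1 with probe sets above the median level or trended moderation and 2 with cyclic loess, median centring or array weights, all at Loxl1. Over the members' values under the alternatives, 189 kept their direction and side of the threshold, 13 lost the call, 5 gained one and 7 turned sign, none of the last called in any fit. Plod2 at 1416687_at became -0.13 with array weights and -0.078 with its probe sets averaged, and ranged from -0.084 (without wild-type 6-1) to 0.15 with an array left out, below 0 also without wild-type 9-1 (-0.047). Plod2 at 1416686_at ranged from -0.32 to 0.023 (without wild-type 8-1), and Loxl4 at 1421153_at from -0.054 (without Frzb-/- 17) to 0.41, with -0.042 without wild-type 9-1. For title 6 against wild-type, Plod1 at 1445893_at became -0.056 with cyclic loess, -0.051 with median centring and -0.075 with array weights, Plod3 became -0.014 with median centring and Plod2 at 1416686_at became -0.059 with array weights. The causes were not tested. The few arrays limit which differences near the thresholds can be called. No paired analysis was run, because no label pairs the wild-type and Frzb-/- mice. Title 6 and wild-type 6-1 share a number in their titles, and whether it marks a pair is not stated.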
